A study of Drosophila melanogaster with 24 samples.

Results

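UDP-glycosyltransferases are enzymes of the endoplasmic reticulum that join a sugar from a UDP-sugar donor, in insects mostly glucose, to small fat-soluble molecules. The conjugate is more soluble in water and can be excreted, and the enzymes are counted with cytochrome P450s and glutathione S-transferases as the machinery that handles plant toxins, insecticides, hormones, pigments and odorants. In flies many of the genes lie side by side in tandem arrays, and transcripts are known from tissues such as gut, fat body, Malpighian tubule (the fly's kidney) and antenna. The family was taken as all probe sets whose platform annotation names 1 gene with a current symbol that starts with Ugt and a digit. This gave 35 probe sets of 33 genes, out of 13966 probe sets on the array. The gene table lists 35 such genes, and Ugt50B3 and Ugt35D1 were not analysed here.

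Whole adult Drosophila melanogaster females were profiled on 24 Affymetrix arrays, each holding RNA of a different line, with 3 lines in each of 8 groups. Lines with no selection served as control. Of the other 7 groups, called regimes here, 5 were selected for resistance to cold, heat, knock-down, desiccation and starvation, and 1 for longevity. The lines of the last, named constant 30, are described as kept at 30 degrees. Each extract came from a vial of 10 females, so each array is a pool, and 5 micrograms of total RNA were primed with oligo-dT. The labels name no mutant allele, transgene or age. They call the lines biological replicates, and the p-values below measure the spread between these lines. The deposited values are log2 values, and a change of 1 is a doubling of signal.

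Array medians ran from 5.46 to 5.57. Tissue markers were those of adult females: eggshell genes had list means of 10.56 to 12.43 on the 24 arrays, and 0 of 7 testis genes on the array passed the filter. Testing was limited to probe sets that exceeded a log2 value of 4 on 3 or more of the 24 arrays, which left 9023. As a measure of RNA quality, the mean 3' minus 5' difference of 4 pairs of Drosophila control probe sets was 1.24 to 1.44 on the heat selected arrays and 1.43 to 1.51 on the control arrays, which overlap. Over the 3 mRNA pairs alone, a choice made after the values were seen, it was 1.34 to 1.68 and 1.69 to 1.82, which do not overlap. Whole bodies were extracted, so fewer cells of a tissue and less RNA per cell cannot be told apart.

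Under the filter, 16 of the 35 Ugt probe sets (45.7%) were tested, against 64.6% of all probe sets, and they stand for 16 genes. Of these, 13 were above 4 on all 24 arrays. By family number, 3 of 4 probe sets of the Ugt36 genes, 2 of 8 of Ugt37, 3 of 6 of Ugt35, 1 of 3 of Ugt302, 2 of 4 of Ugt303 and 2 of 3 of Ugt49 passed. Ugt301D1 and Ugt316A1, the lone probe sets of their numbers, passed as well, while those of Ugt304A1, Ugt307A1 and Ugt317A1 did not. Ugt305A1 and Ugt35B1 have a pair of probe sets each, of which 1 passed. Closest inside the filter lay Ugt303A1, above 4 on 4 arrays with a highest value of 4.19, and Ugt49C1, above 4 on 7 arrays. Closest outside lay Ugt317A1, at 4.19 and 4.12 on heat selected lines 1 and 2 and below 4 on all other arrays.

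The 19 probe sets that were not tested lay between 2.41 and 4.19 and moved together from array to array. On heat selected lines 1, 2 and 3, 18, 19 and 18 of the 19 lay above their own median of 24 arrays, and on control lines 1, 2 and 3, 18, 9 and 19 did. All 19 did so on cold selected line 3, and 0 of 19 on constant 30 line 1. The median of all other probe sets that failed the filter moved by nearly the same amount on each array: it was 0.17 above its own median on heat selected line 2, where the Ugt probe sets were 0.19 above theirs, and 0.10 below on starvation selected line 1, where they were 0.12 below. On all 24 arrays 9 of the 19 stayed within 0.1 of that shared shift, and 15 stayed within 0.25. The largest departures were those of Ugt37B1, at 3.51 on constant 30 line 2, and Ugt37A3, at 3.32 on knock-down selected line 3. The values of most of these 19 probe sets thus followed the low end of each array, and no level or change is read from them.

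**Figure D1:**
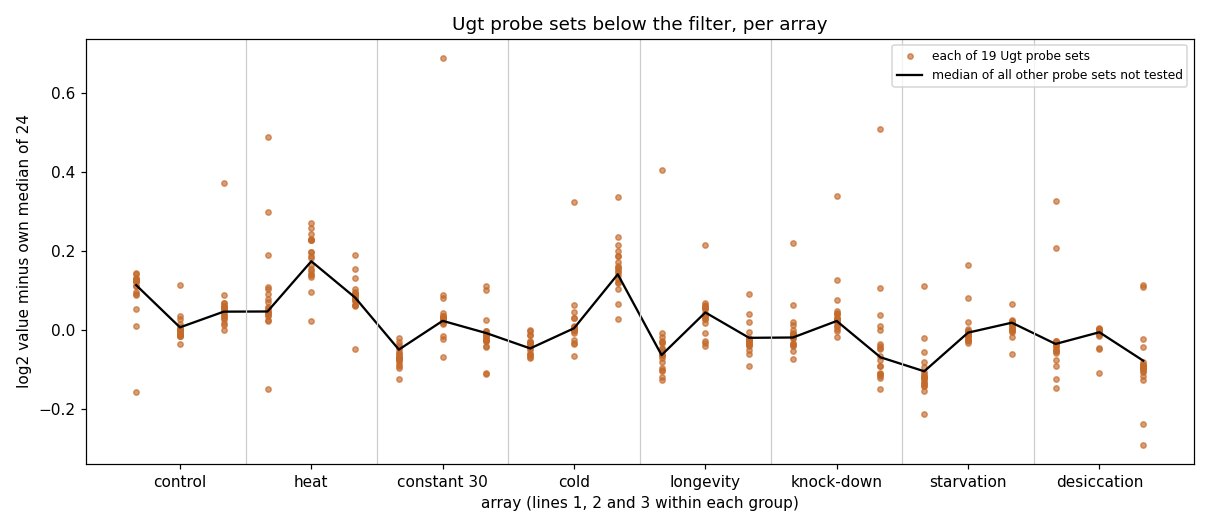
Log2 value minus its own median of 24 arrays (vertical axis) for the 19 Ugt probe sets that failed the filter (points) on each array (horizontal axis, lines 1 to 3 within each group). The black line is the median of all other probe sets that failed the filter, and most points follow it, with all 19 above 0 on control line 3, heat selected line 2 and cold selected line 3.

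The tested members varied more between lines of a group than most probe sets. Their median residual SD was 0.18, against 0.12 over all tested probe sets, and 13 of 16 lay above that median. Control line 3 was the highest of the 3 control lines in 11 members and the lowest in 4. In 10 of 16 members it lay farther from both other control lines than these lay from each other, as did 36.2% of all tested probe sets on that array. Constant 30 line 2 stood apart from its group in the same way in 10 of 16 members, and in 28.7% of all tested probe sets. Each comparison with control uses the same 3 control arrays.

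The 3 neighbouring genes Ugt36F1, Ugt36D1 and Ugt36E1 differed in what they showed. Ugt36D1 was the 1 member that passed the test in a comparison with control: it rose in heat selected females by 0.91 ± 0.22 (SE, adjusted p = 0.0382, n = 3 lines per group), from 6.35 ± 0.50 (SD) to 7.26 ± 0.29. The heat selected lines read 7.38, 7.46 and 6.93, and the control lines 6.14, 5.98 and 6.92. The groups did not overlap, but heat selected line 3 and control line 3 stood side by side. Other values were 6.58, 6.74 and 6.74 in constant 30 lines 1, 2 and 3, 6.96, 6.73 and 7.09 in cold selected and 6.45, 6.51 and 6.85 in longevity selected lines. Knock-down selected lines read 6.56, 7.36 and 7.10, starvation selected lines 6.60, 6.77 and 6.82 and desiccation selected lines 6.48, 6.83 and 7.06. In all 7 regimes the mean lay above control, with changes of 0.25 to 0.91 that share the control arrays. The order of means ran from heat selected (7.26) through knock-down (7.01), cold (6.93), desiccation (6.79), starvation (6.73), constant 30 (6.69) and longevity selected (6.60) to control (6.35). No neighbours in this order were farther apart than 0.25. The SE of a change against control was 0.22, and the residual SD of single lines was 0.29.

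The call for Ugt36D1 rests on single lines. Without control line 1 or 2, or without heat selected line 1 or 2, the change was 0.73 to 0.85 and the adjusted p 0.105 to 0.177. Without control line 3 it was 1.20 (adjusted p = 0.00277), and without heat selected line 3 1.08 (adjusted p = 0.0160). With the RNA quality measure of 4 pairs as a covariate the change was 0.87 (adjusted p = 0.0947), and with that of the 3 mRNA pairs 0.76 (adjusted p = 0.260). The part of RNA quality in this value was not tested further. Against the mean of the other 6 regimes, a comparison that leaves the control arrays out, heat selected females differed by 0.47 ± 0.17 in Ugt36D1 (adjusted p = 0.0715).

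**Figure D2:**
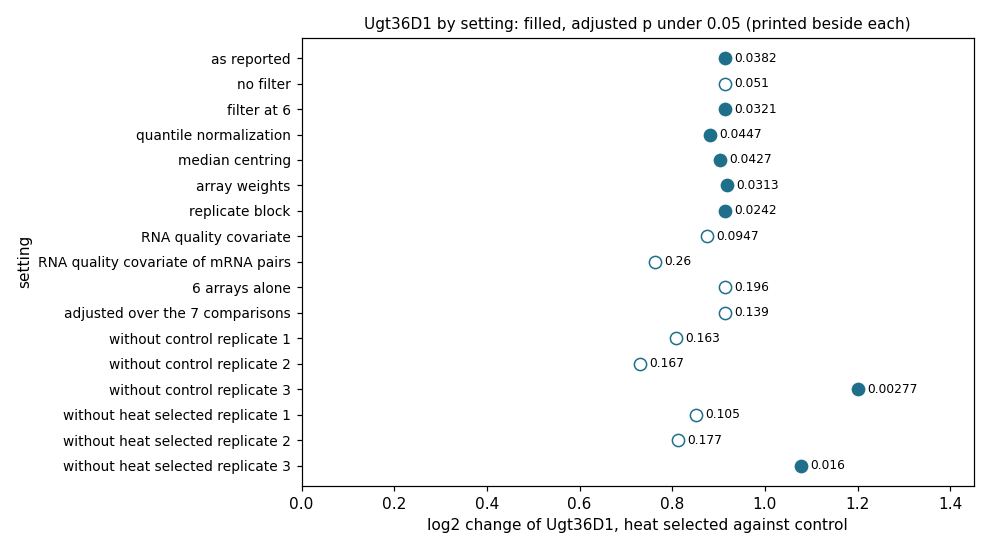
Log2 change of Ugt36D1 in heat selected against control females (horizontal axis) under each setting (vertical axis), with the adjusted p printed beside each point and filled points for an adjusted p under 0.05. The change stays between 0.73 and 1.20, and the call is lost in 9 of the 16 alternatives: no filter, either RNA quality covariate, the 6 arrays alone, adjustment over the 7 comparisons, and without control replicate 1 or 2 or heat selected replicate 1 or 2.

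Ugt36E1, the next gene along, has been linked to the sense of smell in flies and had changes of the opposite sign. The control lines read 8.49, 8.40 and 8.54, the heat selected lines 8.24, 8.20 and 8.31, the constant 30 lines 8.10, 8.38 and 8.33 and the knock-down selected lines 8.32, 8.26 and 8.30. All 9 values of these 3 regimes lay below all control values, by small amounts. Cold selected lines read 8.35, 8.56 and 8.32, longevity selected lines 8.30, 8.56 and 8.33, starvation selected lines 8.42, 8.58 and 8.34 and desiccation selected lines 8.47, 8.31 and 8.36, which overlap control. The change was -0.23 ± 0.09 in heat selected (adjusted p = 0.143), -0.21 ± 0.09 in constant 30 (adjusted p = 0.647) and -0.18 ± 0.09 in knock-down selected females (adjusted p = 0.475), and none passed. Ugt36F1 failed the filter, at 2.93 to 3.23 on all arrays. Ugt36A1, long called Dorothy and known from blood-forming and pericardial cells of the larva, lies apart from these 3 genes and stayed within 5.15 to 5.62, with its largest change, -0.21 ± 0.08, in knock-down selected females (adjusted p = 0.358).

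Ugt37A2 had the smallest F-test p of the family. It was highest in knock-down selected lines, at 5.15, 4.72 and 5.21, starvation selected lines, at 5.23, 4.56 and 5.03, and cold selected lines, at 5.16, 4.68 and 4.81. It was lowest in longevity selected lines, at 4.17, 3.96 and 4.19, and constant 30 lines, at 4.37, 4.09 and 4.26. Every line of the first 3 regimes lay above every line of these last 2. The regimes were picked for this by their order in these same values, and the split was not tested. Control lines read 4.26, 4.15 and 4.73, heat selected lines 4.27, 4.51 and 4.40 and desiccation selected lines 4.55, 4.72 and 4.43, and control line 3 lay inside the range of the high regimes. Against control the change was 0.64 ± 0.17 in knock-down (adjusted p = 0.146), 0.56 ± 0.17 in starvation (adjusted p = 0.331) and 0.50 ± 0.17 in cold selected females (adjusted p = 0.535). Longevity selected females were at -0.28 ± 0.17 and heat selected females at 0.01 ± 0.17. The F test for any difference between the 8 groups gave an adjusted p of 0.103, where 0.0554% of all tested probe sets were called and 0 of 16 members were. At an unadjusted F-test p under 0.05 there were 5 members (15.4% of all). Without control line 3 the change in knock-down selected females was 0.82 (adjusted p = 0.0174). In 13 of 15 alternatives Ugt37A2 was not called in this comparison, and the lowest change was 0.53. Of its relatives, the neighbour Ugt37A3 failed the filter, as did Ugt37A1, Ugt37B1, Ugt37C1, Ugt37C2 and Ugt37E1. Ugt37D1, the last of the trio Ugt37C2, Ugt37E1 and Ugt37D1, was tested and ran from 5.57 to 6.42, with changes of -0.04 to 0.23 and none that passed.

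**Figure D3:**
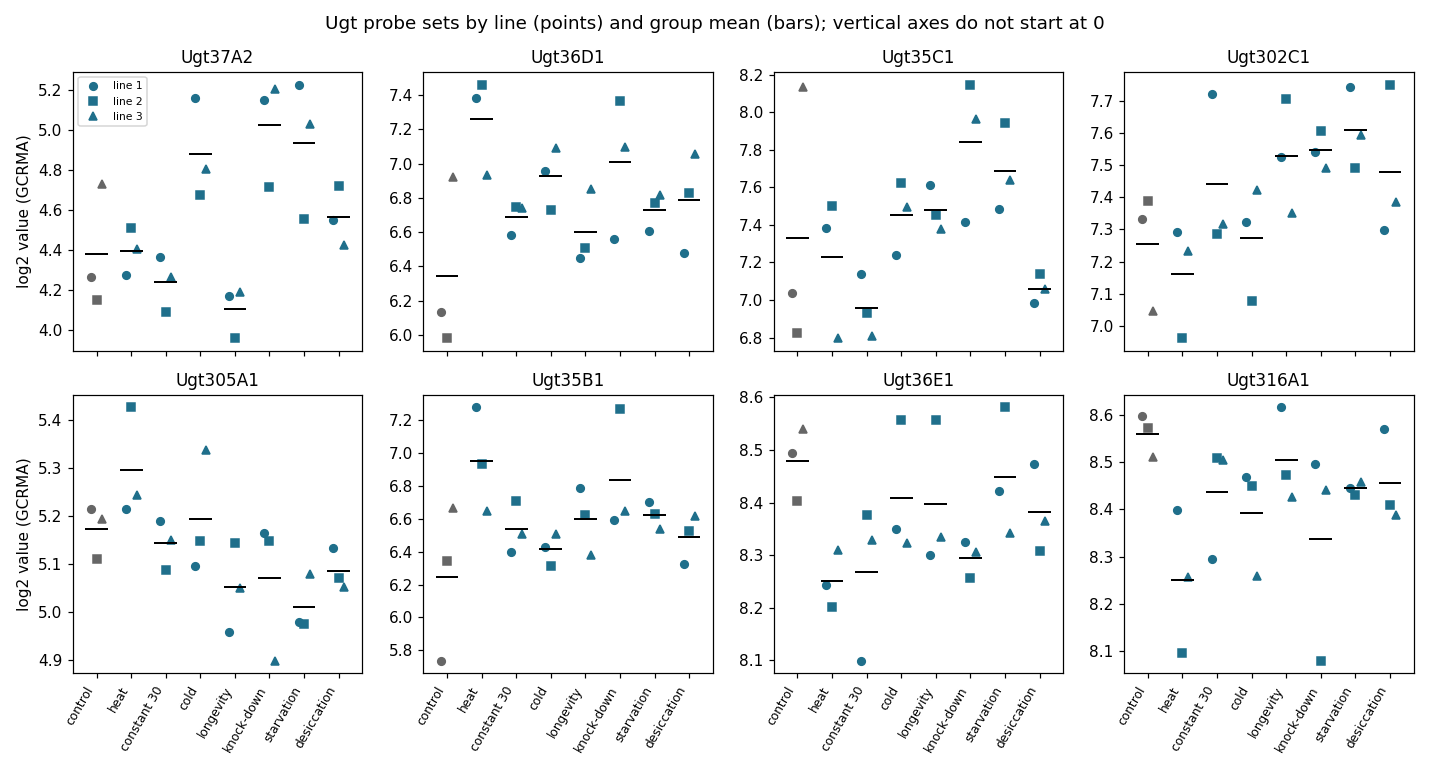
Log2 values (vertical axes, each with its own range) of the 8 Ugt probe sets with the smallest F-test p in the 8 groups (horizontal axes). Points are the 3 lines of a group, bars are group means and control is grey, and Ugt37A2 is higher in all cold, knock-down and starvation selected lines than in all constant 30 and longevity selected lines. That split was picked from the values shown and was not tested.

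The longest array of the family holds 10 genes in a row, with at most 2 other protein-coding genes between neighbours: Ugt35C1, Ugt302K1, Ugt302E1, Ugt302C1, Ugt35E1, Ugt35E2, Ugt35B1, Ugt35A1, Ugt304A1 and Ugt303A1. Of these, 5 passed the filter, and they did not share 1 pattern. Ugt35C1, also known as Ugt86Dd and linked to nicotine resistance of fly larvae through natural variants, ranged from 6.80 to 8.15. Knock-down selected lines read 7.41, 8.15 and 7.97 and starvation selected lines 7.48, 7.94 and 7.64, while constant 30 lines read 7.14, 6.93 and 6.81 and desiccation selected lines 6.98, 7.14 and 7.06. The first 2 regimes lay above the last 2 in all lines, but they were picked by these same values, and this split was not tested either. Control lines read 7.04, 6.82 and 8.13 and so spanned nearly the whole range, heat selected lines read 7.38, 7.50 and 6.80, cold selected lines 7.24, 7.62 and 7.49 and longevity selected lines 7.61, 7.45 and 7.38. The changes against control ran from -0.37 ± 0.25 in constant 30 to 0.51 ± 0.25 in knock-down selected females (adjusted p = 0.501). Without control line 3, the highest of them, the knock-down change was 0.91 (adjusted p = 0.0210). In the other 15 of 16 alternatives it was not called, and the lowest change was 0.26.

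Ugt302C1 was highest in starvation selected lines, at 7.74, 7.49 and 7.59, and knock-down selected lines, at 7.54, 7.61 and 7.49, and both groups lay above the control lines at 7.33, 7.39 and 7.05. Heat selected lines, at 7.29, 6.96 and 7.23, were lowest on average. Constant 30 lines read 7.72, 7.29 and 7.32, cold selected lines 7.32, 7.08 and 7.42, longevity selected lines 7.52, 7.71 and 7.35 and desiccation selected lines 7.30, 7.75 and 7.39, which all overlap control. The change was 0.35 ± 0.14 in starvation (adjusted p = 0.478) and 0.27 ± 0.14 in longevity selected females (adjusted p = 0.659). Heat selected females were at -0.32 ± 0.11 against the mean of the other 6 regimes (adjusted p = 0.0590), which did not pass.

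Ugt35B1 and Ugt35A1 lie next to each other and were among the first fly members of the family to be described, Ugt35B1 from the antenna. Heat selected lines read 7.28, 6.93 and 6.65 for Ugt35B1 and control lines 5.74, 6.34 and 6.66, so that control line 3 and heat selected line 3 stood level. Knock-down selected lines read 6.60, 7.27 and 6.65, constant 30 lines 6.40, 6.71 and 6.51, cold selected lines 6.43, 6.31 and 6.51 and longevity selected lines 6.79, 6.62 and 6.38. Starvation selected lines read 6.70, 6.63 and 6.54 and desiccation selected lines 6.33, 6.53 and 6.62. Control line 1, at 5.74, was the lowest of the 24 values. The change was 0.71 ± 0.20 in heat selected (adjusted p = 0.0592) and 0.59 ± 0.20 in knock-down selected females (adjusted p = 0.260), and all 7 regimes had means above control. Without control line 3 the heat change was 0.91 (adjusted p = 0.0129), and without heat selected line 3 it was 0.86 (adjusted p = 0.0257). In 13 of 16 alternatives the heat change was not called, and at its lowest it was 0.45. The other probe set of Ugt35B1 failed the filter, at 2.83 to 3.24. Ugt35A1 ran from 5.14, on control line 3, to 6.14, and its changes of 0.16 to 0.34 did not pass. Ugt303A1, near the filter, had its largest change, 0.25 ± 0.12, in knock-down selected females (adjusted p = 0.461). That was its only group with a mean above 4, so it may have passed the filter through this group.

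Among the lone genes, Ugt316A1 was below control in all 7 regimes. Control lines read 8.60, 8.57 and 8.51, heat selected lines 8.40, 8.10 and 8.26, constant 30 lines 8.29, 8.51 and 8.50 and cold selected lines 8.47, 8.45 and 8.26. Knock-down selected lines read 8.49, 8.08 and 8.44 and starvation selected lines 8.45, 8.43 and 8.46, and each of these 5 regimes lay wholly below control. Longevity selected lines read 8.62, 8.47 and 8.42 and desiccation selected lines 8.57, 8.41 and 8.39, which overlap it. The largest change, -0.31 ± 0.10 in heat selected females, did not pass (adjusted p = 0.0882).

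Ugt305A1 was the 1 member called in heat selected females against the mean of the other 6 regimes, by 0.20 ± 0.06 (adjusted p = 0.0398). Its values were 5.21, 5.43 and 5.24 in heat selected, 5.21, 5.11 and 5.19 in control, 5.19, 5.09 and 5.15 in constant 30 and 5.10, 5.15 and 5.34 in cold selected lines. Longevity selected lines read 4.96, 5.14 and 5.05, knock-down selected lines 5.16, 5.15 and 4.90, starvation selected lines 4.98, 4.98 and 5.08 and desiccation selected lines 5.13, 5.07 and 5.05. In the same comparison the median of the probe sets that failed the filter was 0.11 higher in heat selected females, and after quantile normalization or median centring Ugt305A1 was not called. The call was also lost with either RNA quality covariate and without heat selected line 1, 2 or 3, constant 30 line 2, cold selected line 1 or 2, longevity selected line 1, starvation selected line 2 or desiccation selected line 2 or 3. Its other probe set failed the filter. The remaining members did not pass in any comparison. Ugt301D1 was above control in all 7 regimes by 0.02 to 0.24, Ugt49B1 ran from -0.09 to 0.07, its neighbour Ugt49C1 from -0.18 to 0.20 and Ugt303B3 from -0.06 to 0.12.

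Over the 16 tested members, heat selected females had 1 higher and 0 lower than control by the test, where 2.84% of all tested probe sets were called (1.99% higher and 0.842% lower). Without adjustment, 4 members had a p under 0.05, of which 2 were higher (20.5% of all). In 4 of 16 the 3 values of each group did not overlap, Ugt36D1 and Ugt305A1 higher (in the latter the nearest heat selected and control lines both read 5.21) and Ugt36E1 and Ugt316A1 lower, where this held for 23.4% of all. The members' median change was 0.04, against 0.01 for all. Against the mean of the other 6 regimes 1 of 16 was called, where 11.1% of all probe sets were, and 5 were at an unadjusted p under 0.05 (31.1% of all).

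Knock-down selected females had 0 of 16 members called by limma, where 0.155% of all were, and 7 members at an unadjusted p under 0.05, 4 higher and 3 lower (10.4% of all). The 4 were Ugt37A2, Ugt36D1, Ugt35B1 and Ugt303A1, and the 3 were Ugt36A1, Ugt316A1 and Ugt36E1. Of these, Ugt303A1 lay near the filter, and only its knock-down selected mean (4.05) was above 4. It may have passed the filter through this group, so its rise here is not read as a result. Groups did not overlap in 3 of 16 (15% of all), and the members' median change was 0.18, against -0.02 for all. Knock-down selected line 2 had the highest value of its group in 7 members, line 1 in 6 and line 3 in 3.

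In the other regimes limma called 0 of 16 members, and 0% of all probe sets in constant 30, cold, longevity and starvation selected females and 0.0776% in desiccation selected females. At an unadjusted p under 0.05 there were 1 member in constant 30 (6.98% of all), 2 in cold (7.9% of all), 0 in longevity (7.95% of all), 2 in starvation (9.21% of all) and 0 in desiccation selected females (7.17% of all). Groups did not overlap in 3 members in constant 30 (13.1% of all), 2 in cold (11.1% of all), 0 in longevity (12.8% of all), 4 in starvation (15.4% of all) and 0 in desiccation selected females (17% of all). Smallest p-values belonged to Ugt36E1 in constant 30, Ugt37A2 in cold and starvation, Ugt302C1 in longevity and Ugt36D1 in desiccation selected females, the last with 0.44 ± 0.22 (adjusted p = 0.698). The mean of the 7 regimes against control had 0 of 16 called (0% of all) and 2 at an unadjusted p under 0.05 (10.9% of all), Ugt36D1 at 0.51 ± 0.17 (adjusted p = 0.230) and Ugt35B1 at 0.39 ± 0.15 (adjusted p = 0.341).

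**Figure D4:**
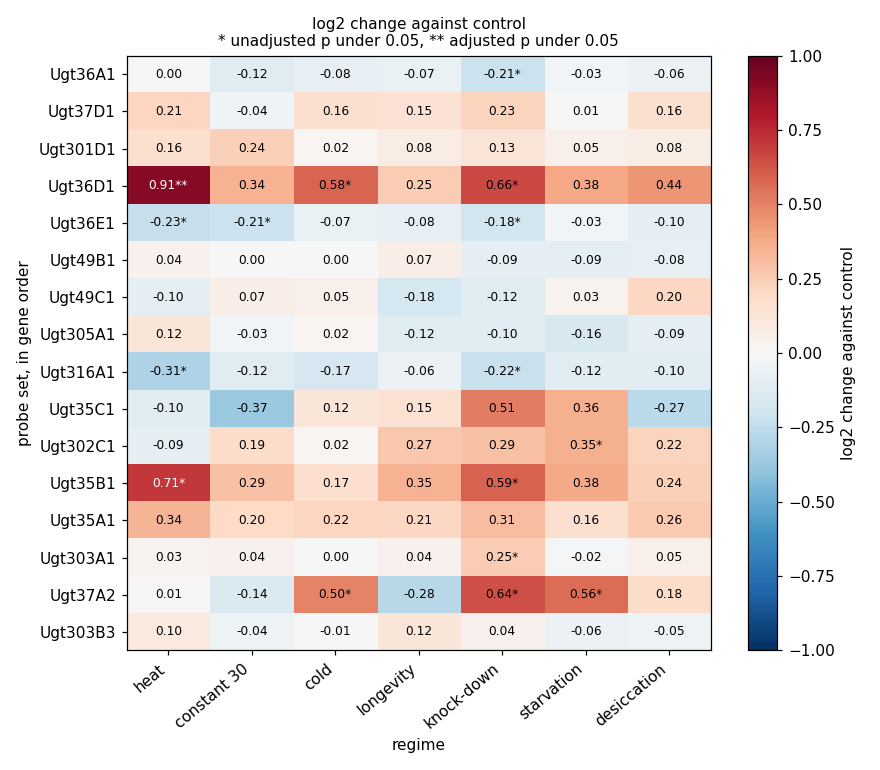
Log2 change against control (colour and printed value) of the 16 tested Ugt probe sets (rows, in gene order) in the 7 regimes (columns), which share the 3 control arrays. Ugt36D1 in heat selected females, at 0.91, is the 1 value with an adjusted p under 0.05.

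Genes that act with the family were described from lists, with 1 probe set per gene and counts over the tested genes. The shares of all tested probe sets called, to set beside these counts, were 2.84% in heat, 0.155% in knock-down and 0.0776% in desiccation selected females and 11.1% in heat selected females against the mean of the other 6 regimes. The heat and knock-down calls depend on the setting. Against control, 256 probe sets became 17 or 1 with an RNA quality covariate, and 0 to 591 without 1 control or heat selected array. Against the other 6 regimes, 998 became 65 or 2 with a covariate, and 2 to 1464 without 1 regime array. In knock-down selected females 14 became 0 to 237 without 1 control or knock-down selected array. It was 0 without control line 1 or 2 or knock-down selected line 2 or 3. Genes of UDP-sugar supply, such as UGP, which makes UDP-glucose, and sgl, which makes UDP-glucuronate, had 0 of 8 called by limma in any comparison, with median changes of 0.03 in heat and -0.06 in knock-down selected females. In heat selected females UGP was at -0.17 ± 0.09 (adjusted p = 0.283). Of 8 regulators of detoxification, among them cnc and Hr96, 0 were called against control, and ftz-f1, a nuclear receptor, fell by 0.45 against the mean of the other 6 regimes (adjusted p = 0.00962). Of 26 glutathione S-transferases, GstE2 rose in knock-down selected females by 1.14 ± 0.19 (adjusted p = 0.0251) and GstS1 was 0.56 higher in heat selected females than in the other 6 regimes (adjusted p = 0.00962). Of 60 cytochrome P450 genes, Cyp6a22 fell in heat selected females by 0.29 (adjusted p = 0.0483), and Cyp4ac3, Cyp4ad1 and Cyp18a1, which breaks down ecdysone, were lower there than in the other 6 regimes, by changes of -0.60, -0.55 and -0.30. These were 3 of 60 called, a smaller share than the 11.1% of all.

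Of 9 ABC transporters, st rose in heat selected females by 0.52 ± 0.11 (adjusted p = 0.0298). It carries precursors of eye pigment and is no pump for toxins. Both st and Mrp4 were called against the other 6 regimes, at 0.36 and 0.22. Among 8 esterases and epoxide hydrolases, alpha-Est2 was at -0.59 against the other 6 regimes (adjusted p = 0.0208). Of 9 other glycosyltransferases, GlcAT-P, which transfers glucuronate, and Uggt, which marks misfolded glycoproteins, were at -0.20 and -0.28 in that comparison, and egh fell in desiccation selected females by 0.51 ± 0.07 (adjusted p = 0.00156). The egh enzyme builds glycolipids and adds mannose, so its donor is no UDP-sugar. List medians in heat selected females were -0.07 for regulators, 0.05 for glutathione S-transferases, 0.02 for P450s, 0.07 for ABC transporters, -0.04 for esterases and -0.11 for other glycosyltransferases, against 0.01 for all probe sets.

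Markers of tissues that transcribe Ugt genes, and of others that can vary in whole females, were set beside these values. For Malpighian tubule, 7 or 8 of 9 tested markers were above control in each of the 7 regimes, which share the control arrays, with median changes of 0.14 to 0.33. The median was 0.32 in heat selected females, where it was 0.02 against the mean of the other 6 regimes. In heat selected females CG17752, a predicted organic ion transporter, and Irk3, a potassium channel, rose by 0.87 and 0.80 (adjusted p = 0.0390 and 0.0494). CG17752 was also called higher in knock-down selected females, in a comparison that lost all its calls without control line 1. The mean log2 value of the Malpighian tubule list was 6.88 to 6.97 in heat selected, 6.89 to 7.24 in knock-down selected and 6.40 to 6.79 in control lines. Control line 3, high in Ugt36D1, was the highest control line here, and also in the lists of glutathione S-transferases, P450s and ABC transporters. Heat selected line 2, the highest of its group in Ugt36D1, was the lowest of its group here, at 6.88. Midgut markers were at 10.42 to 10.66 in heat selected, 10.81 to 10.87 in knock-down selected and 10.36 to 10.54 in control lines. Their changes in heat selected females ran from -0.62 to 0.63, with 6 of 9 above control, and 8 of 9 were above it in knock-down selected females. Against the other 6 regimes, 2 of 9, Jon99Ci and Jon25Bi, were called lower in heat selected females, where 11.1% of all probe sets were called. Fat body markers were at 9.56 to 9.95 in heat selected, 9.85 to 10.11 in knock-down selected and 10.11 to 10.28 in control lines. Lsp2, a storage protein, was lower in heat selected females by a change of -4.05 (adjusted p = 0.0199). These list means take in Lsp2. The median change of the 10 markers was -0.09 in heat and -0.05 in knock-down selected females, with 3 above control in each. Markers of the antenna, with Orco, lush and Obp99b below the filter, were at 6.49 to 6.83, 6.61 to 6.70 and 6.41 to 6.73 and so overlapped. Eye markers were at 7.27 to 7.70 in heat selected and 6.66 to 7.30 in control lines, muscle markers at 9.35 to 10.23 and 8.48 to 9.19 and eggshell markers at 10.56 to 11.75 and 11.82 to 12.20. By the test 4 of 7 eye and 5 of 8 muscle markers rose in heat selected females and 3 of 9 eggshell markers fell. These marker calls rest on single arrays, since without control line 1 or heat selected line 2, 0 of 9023 probe sets were called against control. In each of the 7 regimes 7 of 7 eye markers and 6 to 8 of 8 muscle markers lay above control. The part of tissue makeup in the Ugt values was not tested.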

How the data were processed

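The authors deposited log2 values per probe set, made with GCRMA (background correction and normalization) per the submitters' processing notes, which state no version or settings in the part used here. The range of the values, for 14010 probe sets on 24 arrays, gave the log2 scale. No normalization was added, and the number of arrays limits the precision. The 44 control probe sets were left out. Platform annotation named the probe sets, and gene identifiers linked them to current symbols in a Release 6 gene table, used for names and gene order only. Using limma 3.58.1 (R 4.3.3; lmFit and eBayes), all 24 arrays entered 1 fit with a mean per group, which left 16 residual and 3.56 prior degrees of freedom. Two-sided p-values were adjusted by the Benjamini-Hochberg method over the 9023 tested probe sets of each comparison, and a call needs an adjusted p under 0.05. The fit was tested on simulated data. Full values are given, by rule, for called members, for the 8 with the smallest F-test p and for the smallest p in each regime. Further lists are UDP-sugar supply, regulators, glutathione S-transferases, P450s, ABC transporters, esterases, other glycosyltransferases and 8 tissue marker lists. Members and lists were chosen with earlier results of these data known. Replicate numbers were not taken to pair lines. The rule for pairing needed every same-numbered pair to have deviations correlated above 0.1. Paired lines could also fail so strict a rule, so it cannot decide whether lines were paired. A correlation above 0.1 held for 34 of 84 same-numbered pairs (median r 0.07) and for 40 of 168 pairs with different numbers (median r -0.02). No sequences are shown.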

Additional observations from a re-analysis of the deposited data

Results flagged for a closer look

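Ugt305A1 was 0.20 higher in heat selected females than in the mean of the other 6 regimes, by the test of that difference itself. The F test for any difference between the 8 groups did not call it (limma, adjusted p = 0.309). Against control, the 3 heat selected lines lay above all control lines, by 0.12 on average (limma, adjusted p = 0.412), though the nearest lines of these groups both read 5.21. The 3 starvation selected lines lay below all control lines, by a change of -0.16 (limma, adjusted p = 0.557). The contrast between heat and starvation selected lines was not tested on its own. The probe set was called in the first comparison in the fit as reported (limma, adjusted p = 0.0398) and lost that call in 15 of 28 alternatives, and the median of probe sets that failed the filter was 0.11 higher in the same comparison.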

How the results depend on the processing

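Across all alternatives, the 14 log2 changes of named members kept their sign in 262 of 262 values. These 14 were picked in the same data as called or of smallest p. The alternatives reuse most of the same arrays, so a change of sign was unlikely from the start. The count of called members stayed as reported in 169 of 205 values. In heat selected females the count of 1 became 0 with no filter, with the 6 arrays alone, when adjusted over the 7 comparisons and with either RNA quality covariate (of 4 or of 3 pairs, alternatives added after the data were seen), and 2 with array weights (Ugt36D1 and Ugt35B1); leaving out 1 array gave 0 to 2. In knock-down selected females it became 1 with array weights (Ugt37A2), and 0 to 4 with 1 array left out, the 4 being Ugt36D1, Ugt35B1, Ugt35C1 and Ugt37A2 without control replicate 3. For the mean of the 7 regimes leaving out 1 array gave 0 to 1 (Ugt36D1 without control replicate 3). Against the other 6 regimes the count of 1 became 6 with no filter, 4 of them members that follow the low end of the arrays, and 0 with the filter at 6, quantile normalization, median centring, array weights and either RNA quality covariate; without 1 array it was 0 to 3. The filter at 6 does not test Ugt305A1. For the F test the count of 0 became 1 (Ugt37A2) with array weights and 1 with the replicate number as a block, and 0 to 1 without 1 array (1 without control replicate 3 or starvation selected replicate 2). The block changed no other count of members. Over all tested probe sets it raised the calls in heat selected females from 256 to 410 against control and from 998 to 1239 against the other 6 regimes. By the F test the calls went from 5 to 15. The labels give lines of the same replicate number nothing in common but that number. Of the 24 arrays, 9 correlated best with an array of their own number, which cannot decide whether lines were paired. The cause of these shifts was not tested, other than that no filter tests more probe sets.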
